A study of Mus musculus with 27 samples.

Results

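The AP-1 subunit genes followed here were Fos, Fosb, Fosl1 and Fosl2 of the FOS family, Jun, Junb and Jund of the JUN family, and Atf3, Batf and Batf3 of the ATF and BATF families. They were chosen by name, and their probes were found through the RefSeq accession given for each spot. All 10 genes were matched, by 11 probes, among 37208 genes or transcripts on the array, of which 20145 had a symbol. Their RNA was followed in 27 one-colour Agilent mouse arrays of embryonic stem cells (ESCs) that were differentiated towards blood and vascular smooth muscle.

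The cells came from the dnFOS ESC line, a mouse line grown on embryonic feeder cells, in which doxycycline (DOX) switches on a Flag-tagged dominant-negative FOS. This peptide pairs with JUN proteins and keeps them off DNA, and its cassette sits at the Hprt locus. The 7 untreated groups, labelled as having AP-1, were FLK1+ cells freshly purified from embryoid bodies (the hemangioblast stage), complete blast cultures made from them after 5 h and after 24 h, and 4 populations sorted at day 2. The sorted populations were smooth muscle (SM) cells, hemogenic endothelium 1 (HE1, KIT+TIE2+CD41-), hemogenic endothelium 2 (HE2, KIT+TIE2+CD41+) and hematopoietic progenitors (HP, KIT+TIE2-CD41+). The other 6 groups, labelled as lacking AP-1, were the same blast cultures and sorted populations given 1 µg/ml DOX for 5 h, 1 day or 2 days. Every group, untreated ones included, carried the cassette, clones were picked when the line was made, and the number of clones behind the arrays is not given in the sources used here. Cassette-free cells treated with DOX were not among the samples, so an effect of DOX and an effect of dnFOS cannot be told apart. Untreated SM cells had 3 arrays and every other group 2. Nothing says that replicates came from separate differentiations, so the p-values measure only the spread between these arrays, which may be technical.

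AP-1 proteins bind DNA as dimers, held together by the leucine zipper of their bZIP domain. A dimer of a FOS and a JUN protein is the classic form, and AP-1 dimers bind the sequence TGANTCA or the cyclic AMP response element (CRE) TGACGTCA. ATF3 and the BATF proteins are smaller partners without a strong activation domain of their own, and they often repress or work with other factors. Several of these genes are immediate-early genes, whose transcription starts within minutes of a growth factor or stress signal that reaches them through MAP kinases and the serum response factor.

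The stretches of 250 bases before the annotated transcription start are shown for 4 of these genes, picked by their RNA values. Whether the sequences have a part in those values was not tested. Fosb varied most between populations, Jun was measured higher and Atf3 and Batf3 lower in DOX-treated cells. The sequences are RefSeq's, on GRCm38.p6, for Fosb at chr7:19310046-19310295, Jun at chr4:95052223-95052472 and Atf3 at chr1:191183334-191183583, all on the minus strand, and for Batf3 at chr1:191098164-191098413 on the plus strand. Capitals mark the motif matches named below.
Fosb: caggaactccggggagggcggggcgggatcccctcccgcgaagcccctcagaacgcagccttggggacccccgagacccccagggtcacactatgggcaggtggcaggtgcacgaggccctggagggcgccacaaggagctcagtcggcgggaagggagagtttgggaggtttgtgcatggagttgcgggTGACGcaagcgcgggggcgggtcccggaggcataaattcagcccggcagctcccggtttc
Jun: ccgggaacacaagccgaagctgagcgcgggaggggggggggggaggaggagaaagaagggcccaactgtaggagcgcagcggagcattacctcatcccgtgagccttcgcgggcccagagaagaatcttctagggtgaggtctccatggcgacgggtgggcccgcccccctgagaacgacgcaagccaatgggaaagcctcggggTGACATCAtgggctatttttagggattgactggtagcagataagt
Atf3: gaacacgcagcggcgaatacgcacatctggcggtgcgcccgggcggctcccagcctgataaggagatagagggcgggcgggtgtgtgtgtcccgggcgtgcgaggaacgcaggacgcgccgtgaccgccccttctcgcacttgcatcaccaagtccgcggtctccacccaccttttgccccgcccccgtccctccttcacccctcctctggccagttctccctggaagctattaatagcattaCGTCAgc
Batf3: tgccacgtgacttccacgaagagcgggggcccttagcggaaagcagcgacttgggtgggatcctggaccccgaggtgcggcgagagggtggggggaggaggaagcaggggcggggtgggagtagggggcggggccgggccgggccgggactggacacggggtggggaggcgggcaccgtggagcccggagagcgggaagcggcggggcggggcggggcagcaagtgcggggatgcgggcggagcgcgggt

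Of the 10 genes, 9 had such a sequence in the RefSeq table used, and Fosl1 was not in it. Both strands were searched. The AP-1 site TGANTCA was found before 0 of these 9 genes, against 6.75% of 32851 promoters of the same length. The full CRE TGACGTCA was found before 0 of 9, against 1.55% of all promoters. Jun alone held TGACATCA, the variant CRE known from its promoter, 45 to 38 bases before the start, a motif present in 2.93% of promoters. The short core TGACG, which is also the first part of TGACGTCA, stood before Fos, Fosb, Junb, Atf3 and Batf, against 17.8% of promoters. In Fosb it lay 60 to 56 bases and in Atf3 7 to 3 bases before the start. The GC content of these 250 bases ranged from 46.4% in Batf to 76.0% in Batf3, against 53.2% over all promoters. Such matches are letters in a short window and say nothing about sites elsewhere.

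Levels are given as log2 of the spot signal minus the array's 75th percentile, so a level of 0 is that percentile, and levels of different genes were not compared. Fos, Fosl2, Jun, Junb, Jund, Atf3 and Batf3 were well above background on all 27 arrays, Fosb on 26, Fosl1 on 20 and Batf on 16. That percentile was a signal of 78.8 on the dimmest and 732 on the brightest array, between 48.0% and 89.7% of spots were above background, and Pearson's r of replicate arrays, taken over genes, lay between 0.918 and 0.977. The number of arrays limits the precision of every value. Untreated HE2 replicate 1 was the dimmest array. The untreated HE1 arrays had percentiles of 145 and 140, against 380 and 155 with DOX. On such dim arrays a signal near background gives a higher level. Arrays lay on 5 slides scanned on 4 days. FLK1+ cells shared a slide with blast cultures and SM cells but not with HE1, HE2 or HP cells, and HE1 cells shared no slide with the untreated 24 h cultures. Hprt, at whose locus the cassette sits, was higher with DOX in all 11 pairs of groups on a slide, by 1.79 to 4.29 on the log2 scale, and averaged 2.80 higher over the 6 populations (SE 0.23, limma adjusted p = 7.41e-06). Whether the Fos probe lies in the part of FOS that dnFOS also holds is not known from the files.

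Marker genes were read against the labels of the sorted populations. The mean level of 12 endothelial markers was 3.29 to 3.76 on the HE1 arrays, that of 10 hematopoietic progenitor markers was 3.26 to 3.29 on the HP arrays, and that of 10 smooth muscle markers was 3.03 to 3.24 on the SM arrays. Some lists spread widely within a group. The endothelial mean ran from -1.47 to 1.82 on the 3 untreated SM arrays, replicate 2 being the high one, and from -1.47 to 1.86 on the SM arrays with DOX. The mean of 8 fibroblast and feeder markers ran from -1.46 to 1.92 on the HE1 arrays and from 1.56 to 3.36 on the untreated SM arrays, and that of 10 erythroid markers from 0.48 to 2.37 on the latter, against 0.59 to 0.63 on HP arrays. The part of these cells in the members' values was not tested. Smooth muscle markers were higher in the unsorted 24 h cultures, at 3.71 to 3.81, than on any SM array. The 10 myeloid markers, which include Csf1r and Spi1, had mean levels of -1.83 to -1.46 on HE1, 1.07 to 1.41 on HE2 and 2.09 to 2.50 on HP arrays.

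The comparison of the 7 untreated groups asks when each AP-1 gene is on during the passage from hemangioblast to smooth muscle or blood. Of the 10 genes, 9 varied over the untreated groups by limma's F test (adjusted p under 0.05, Benjamini-Hochberg over all genes tested), as did 17.9% of genes. Junb did not pass (adjusted p = 0.590). With the slide as a fixed block 5 passed, and Jun (adjusted p = 0.206), Jund (0.173), Atf3 (0.0740) and Batf3 (0.0988) did not. FLK1+ cells shared no slide with HE1, HE2 or HP cells. By the means, Fos and Fosb were highest in SM cells, where their arrays overlapped those of HP and of HE1 cells respectively, and Fosl1 and Fosl2 in the 5 h cultures, without overlap with the 24 h cultures next in order. In these bulk samples, more cells of a kind and more RNA per cell cannot be told apart.

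**Figure D1:**
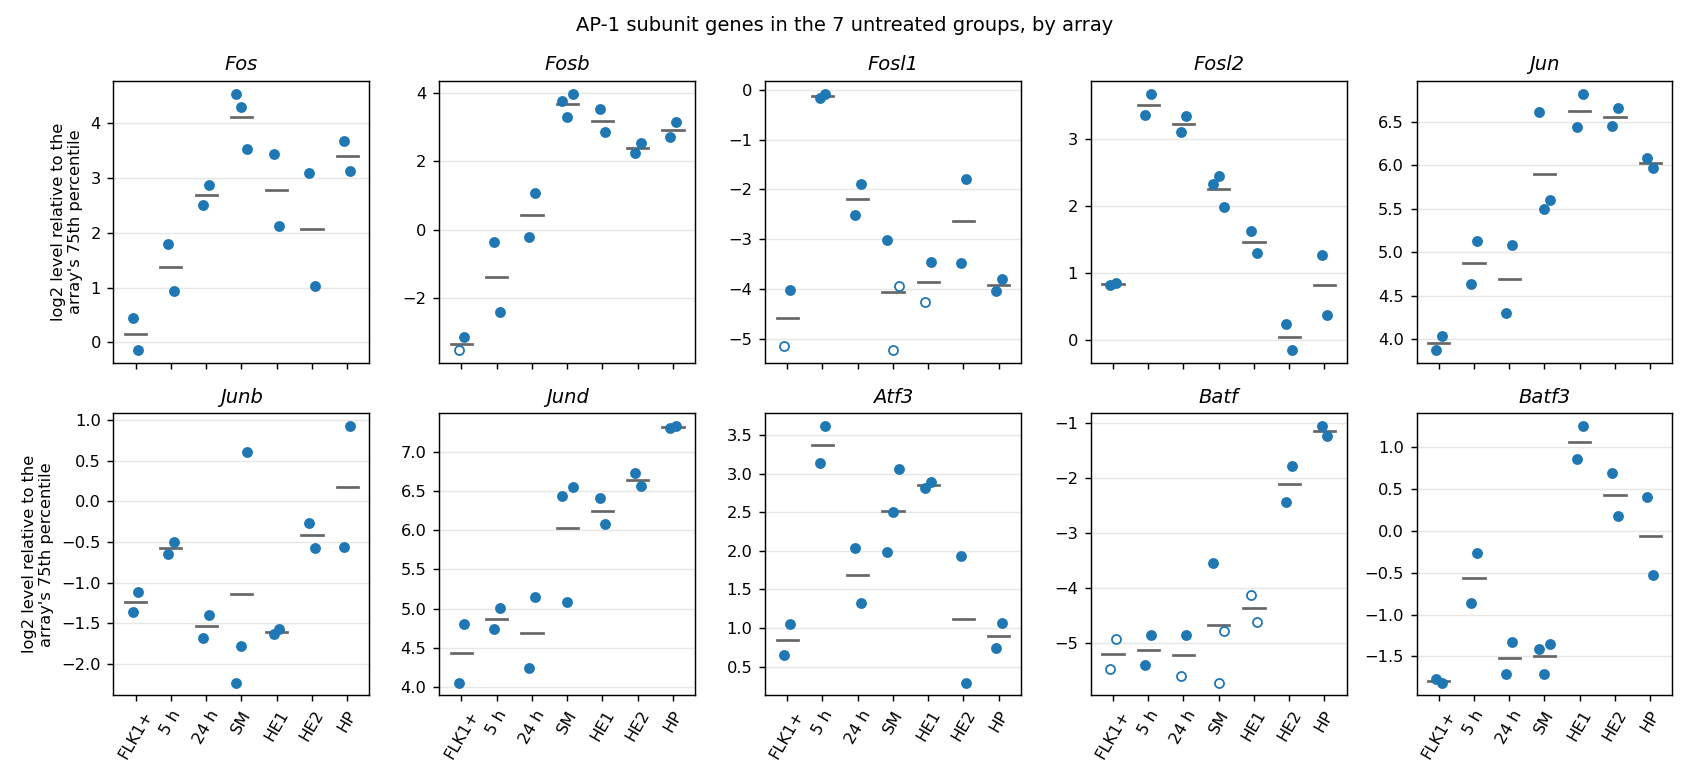
Log2 level (relative to the array's 75th percentile) of the 10 AP-1 subunit genes on each untreated array of the 7 groups. Points are arrays, bars are group means, and open points are arrays where the probe was not well above background. Each panel has its own axis. Fosb spans 7.00 on the log2 scale between FLK1+ and SM cells, Fosl1 and Fosl2 are highest at 5 h, and Batf stands clear of the other groups only in HE2 and HP cells.

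Fosb encodes a FOS protein with a full activation domain and is a classic immediate-early gene. Its level was -3.12 and -3.51 on the FLK1+ arrays, the latter not above background, then -2.40 and -0.35 after 5 h and 1.07 and -0.22 after 24 h. It was 3.30, 3.77 and 3.97 in SM, 2.84 and 3.52 in HE1, 2.54 and 2.23 in HE2 and 3.15 and 2.71 in HP cells. Every array of a sorted population lay above every array of the cultures, and the 3 earlier groups did not overlap each other either. SM cells were 128-fold above FLK1+ cells (log2 7.00, SE 0.65, limma adjusted p = 3.00e-06) and HE1 cells 90.4-fold (log2 6.50, SE 0.72, adjusted p = 1.98e-05). Since 1 of 2 FLK1+ arrays was not above background, Fosb entered both tests only through the SM or HE1 arrays where it was high, so these calls are a description and the folds depend on a dim value. Both calls were made under each of the 41 alternatives in which they were tested, leaving out SM replicate 2 among them, but their size varied. The log2 differences were 5.42 and 4.83 with normexp, 6.14 and 5.81 with the authors' processed values, 6.25 and 5.47 with median scaling, and 7.00 and 6.51 with the slide as a block. Fosb also rose from the 24 h cultures to SM cells (log2 3.26, SE 0.65, adjusted p = 0.0403) and to HE1 cells (2.76, SE 0.72, adjusted p = 0.0408). These 2 calls were weak: the first was lost without 1 array in 17 of 27 cases, with log2 values of 2.62 to 3.90, and the second in 13 of 27, with 2.12 to 3.40. With the slide as a block neither was called (3.58, adjusted p = 0.0738, and 3.08, adjusted p = 0.159).

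Fos, the founding member whose protein dnFOS is built from, followed a like course. Its level was -0.14 and 0.45 in FLK1+ cells, 0.95 and 1.79 after 5 h, 2.88 and 2.51 after 24 h and 4.30, 4.54 and 3.53 in SM cells. It was 2.12 and 3.45 in HE1, 1.04 and 3.09 in HE2 and 3.14 and 3.68 in HP cells. FLK1+ cells were lowest without overlap, and each of the other 5 neighbouring pairs in the order of means overlapped. SM cells were 15.7-fold above FLK1+ cells (log2 3.97, SE 0.75, limma adjusted p = 0.00212), a call made under all 42 alternatives, with a difference of 4.15 on the 1 slide that held both. In HE1 cells Fos was 6.20-fold above FLK1+ cells (log2 2.63, adjusted p = 0.0436), and this call was lost in 19 of 42 alternatives, 14 of them the loss of 1 array (log2 1.97 to 3.30, adjusted p up to 0.253). With median scaling it was 1.60.

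Fosl1 (FRA1), a FOS protein that lacks the activation domain and is itself known to be switched on by AP-1, showed a short peak. Its level was -4.01 and -5.16 in FLK1+ cells, the latter not above background, and -0.08 and -0.16 after 5 h. After 24 h it was -1.89 and -2.51, and in the 4 sorted populations it lay between -5.23 and -1.79. The 5 h arrays stood above every other untreated array. The rise from FLK1+ cells was 22.1-fold (log2 4.47, SE 0.84, limma adjusted p = 0.00694) and was 4.43 on the slide that held both. With 1 of 2 FLK1+ arrays not above background, Fosl1 likewise entered the test only through the 5 h arrays, so this call too is a description. With normexp it was 2.38 and still called (adjusted p = 0.0157), and with the authors' processed values 2.90. It was not called without FLK1+ replicate 2 (log2 3.90, adjusted p = 0.0668) or without 5 h replicate 1 (4.43, adjusted p = 0.126). From 5 h to 24 h the log2 difference was -2.08, with no overlap of the arrays, as for 23.3% of genes lower at 24 h, and was not called (adjusted p = 0.346).

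Fosl2 (FRA2), the other FOS protein without that domain, kept its rise longer. The level was 0.86 and 0.82 in FLK1+ cells, 3.68 and 3.36 after 5 h, 3.35 and 3.10 after 24 h and 2.46, 2.33 and 1.99 in SM cells. It was 1.30 and 1.62 in HE1, -0.15 and 0.24 in HE2 and 0.38 and 1.28 in HP cells. From 5 h to 24 h, SM and HE1 cells the arrays of each group lay below those of the group before it, and only FLK1+ and HP cells overlapped as neighbours. The rise at 5 h was 6.40-fold (log2 2.68, SE 0.46, limma adjusted p = 0.00349, and 2.52 on the shared slide). HE1 cells were 3.40-fold below the 24 h cultures (log2 -1.77, adjusted p = 0.0395) and SM cells 2.67-fold above FLK1+ cells (log2 1.42, adjusted p = 0.0407). The last 2 calls were lost without 1 array in 14 and 17 of 27 cases (log2 -1.93 to -1.60, and 1.32 to 1.55), and the 5 h call without 5 h replicate 1 (2.52, adjusted p = 0.100). The HE1 call was also lost with slide as a block (-1.74, adjusted p = 0.136), and the SM call with median scaling (0.68, adjusted p = 0.475). A second, dim Fosl2 probe did not follow this course. Its level lay between -3.31 and -2.18 in all 7 groups and was highest in HE1 cells, and with both probes averaged the differences were 1.60 at 5 h (adjusted p = 0.0645), -0.50 for HE1 cells against the 24 h cultures (adjusted p = 0.556) and 1.21 for SM against FLK1+ cells (adjusted p = 0.0739), none of them called.

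Jun, the partner with which FOS proteins most often pair and which drives its own transcription, was higher in every later group than at the start. Its level was 4.04 and 3.87 in FLK1+ cells, 5.13 and 4.63 after 5 h, 5.08 and 4.30 after 24 h, and 5.49, 6.60 and 5.60 in SM cells. It was 6.82 and 6.43 in HE1, 6.66 and 6.45 in HE2 and 5.97 and 6.08 in HP cells. Every sorted array lay above every culture array. HE1 cells were 6.36-fold above FLK1+ cells (log2 2.67, SE 0.57, limma adjusted p = 0.00474) and SM cells 3.84-fold (log2 1.94, SE 0.52, adjusted p = 0.0240). The HE1 call was lost without HE1 replicate 1 (2.48, adjusted p = 0.0607), and the SM call without either FLK1+ array (1.86 and 2.02) and without SM replicate 2 (1.59). With the slide as a block the differences were 1.96 for HE1 (adjusted p = 0.0474) and 1.47 for SM cells (adjusted p = 0.0507), and with median scaling they were 1.64 and 1.20, neither called.

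Jund, often the steadiest of the JUN genes and a restraint on growth in some cells, climbed along the blood lineage. Its mean level was 4.43 in FLK1+ cells, 4.87 and 4.69 in the cultures and 6.02 in SM cells, then 6.25, 6.64 and 7.31 along HE1, HE2 and HP cells. The HP arrays, at 7.33 and 7.30, lay above every other untreated array, but no single comparison of Jund was called (F test adjusted p = 0.0232, which passed 0.05 in all but 7 of 41 alternatives). Junb, a weaker activator that can oppose JUN, ranged only from a mean of -1.60 in HE1 to 0.18 in HP cells. Its arrays spread from -2.23 to 0.60 within SM cells, and 5 of the 6 neighbouring pairs of groups overlapped.

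Among the smaller partners, the mean of Batf3 was highest in HE1 cells and that of Batf in HP cells. BATF3 is best known from dendritic cells, where it works with IRF factors. Its level was -1.81 and -1.77 in FLK1+ cells, -0.27 and -0.87 after 5 h, -1.32 and -1.70 after 24 h and -1.71, -1.41 and -1.36 in SM cells. It was 1.25 and 0.86 in HE1, 0.18 and 0.69 in HE2 and -0.53 and 0.40 in HP cells. The HE1 arrays were above all other untreated arrays. HE1 cells were 7.16-fold above FLK1+ cells (log2 2.84, SE 0.63, limma adjusted p = 0.00617) and 5.91-fold above the 24 h cultures (log2 2.56, SE 0.63, adjusted p = 0.0299). The first call was lost without FLK1+ replicate 1 (2.82) and HE1 replicate 1 (2.65), and with slide added to the model (2.60, adjusted p = 0.0665). The second was lost without either array of either group (2.37 to 2.76), with slide as a block (2.53, adjusted p = 0.210) and with scan day as a block (2.24, adjusted p = 0.0614). With median scaling neither was called and both log2 differences were 1.81. SM cells were 5.83-fold below HE1 cells (log2 -2.54) and missed the threshold (adjusted p = 0.0520), with differences of -2.27 and -2.60 on the 2 slides that held both.

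Batf, a factor of lymphocytes and blood stem cells that pairs with JUN proteins, was near background until the cells turned CD41+. Its level lay between -5.71 and -3.54 on the 11 arrays of FLK1+ cells, cultures, SM and HE1 cells, and was above background on 4 of them. It was -1.78 and -2.43 in HE2 and -1.23 and -1.06 in HP cells. The HP arrays lay above the HE2 arrays and these above all others. Since neither HE1 array was above background, HP cells were at least 6.86-fold and HE2 cells at least 3.54-fold higher than HE1 cells, and only the former was called (limma adjusted p = 0.0103 and 0.119). Batf entered these tests only through the HP and HE2 arrays, where it was above background, so it had to differ and the call is a description. The HP call was lost without HP replicate 1 (adjusted p = 0.0860), HP replicate 2 (0.0800) or HE1 replicate 1 (0.0861), and with a background correction by normexp, which gave a fitted log2 difference of 0.67. Atf3, a stress-induced member that often represses its targets, was 3.62 and 3.13 after 5 h, against 1.05 and 0.65 in FLK1+ cells. In later groups its means lay between 0.90 in HP and 2.85 in HE1 cells. The 5 h arrays were highest, 5.75-fold above FLK1+ cells by the means, but no comparison of Atf3 was called, and its F test (adjusted p = 0.0417) no longer passed in 21 of 41 alternatives.

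By comparison, the later groups were set against FLK1+ cells first. From FLK1+ cells to 5 h all 10 had positive differences, with a median of 1.22 on the log2 scale against -0.20 over all genes tested, and 2 of 10 were called, against 2.73% of genes. The arrays of 8 of the 10 did not overlap and were higher at 5 h, as for 25.6% of genes. Between SM and FLK1+ cells 4 of 8 tested members were called, against 8.36% of genes, and all 4 were higher, as 5.85% of genes were, and 7 of 8 did not overlap, against 22.7% of genes higher in this way. Between HE1 and FLK1+ cells 4 of 8 were called, against 11.6%, and all 4 were higher, as 7.1% of genes were. The arrays of 7 of 8 were higher without overlap, against 37.8% of genes, and those of Junb were lower without overlap, against 33.5%. These 3 comparisons share the FLK1+ arrays. Members that passed the filter because they were high in the later group had to differ, so these counts describe the tested genes only.

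The other 7 untreated comparisons do not use the FLK1+ arrays. Between SM cells and the 24 h cultures 1 of 9 was called (0.26% of genes), between HE1 cells and the 24 h cultures 3 of 9 (3.17%), and between HP and HE1 cells 1 of 10 (4.3%), which was Batf. From 5 h to 24 h limma called 0 of 10 (1.43%), from HE1 to HE2 0 of 10 (2.33%), from HE2 to HP 0 of 10 (0.00394%), and between SM and HE1 cells 0 of 8 (0.543%). At an unadjusted p under 0.05 these 4 comparisons held 3 members (Fosb, Fosl1 and Atf3, against 10.6% of genes), 3 (Fosl2, Atf3 and Batf, against 9.41%), 0 (against 5.96%) and 1 (Batf3, against 8.57%). Over the 10 comparisons 15 members' differences were called, 14 of them positive, against 3.43% of all differences tested. Fosb and Fosl1 against FLK1+ cells, and Batf in HP against HE1 cells, entered only through the group where they were high. They had to differ, so this total is a description. It became 6 where a probe had to be above background in every group compared.

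The other genes of the pathway showed where these changes stood. Rose and fell here mean called higher and lower. Of 20 tested immediate-early genes outside AP-1, 4 rose at 5 h, against 2.46% of genes called higher, and 0 fell, with a median of 1.10. They included the synaptic gene Arc (log2 4.15, limma adjusted p = 0.000263), the matrix gene Ccn1 (3.29) and the growth arrest gene Gadd45b (2.86). Egr1, which shares its signals with Fos, rose instead from the 24 h cultures to SM cells (2.23, adjusted p = 0.0382), as Fosb did. Of 16 tested textbook AP-1 target genes, 5 rose at 5 h, against the same 2.46%, among them the chemokine Ccl2 (5.80) and the urokinase receptor Plaur (4.88), and 0 fell. From HE1 to HE2 cells 3 of 15 of these targets fell, against 1.79% of genes called lower, and 0 rose, among them Timp1 (-5.00) and Ccl2 (-4.74), with a median of -1.62 against 0.06 over all genes. Of 27 MAP kinases and their kinases 0 rose in any of the 10 untreated comparisons, and 1 fell at 5 h (Map2k6, against 0.269% of genes called lower), 1 from FLK1+ to HE1 cells (Map2k1, against 4.55%) and 1 from HE1 to HP cells (Mapk12, against 2.6%). Among 21 other bZIP partners, Jdp2, a repressor that pairs with JUN, rose from 5 h to 24 h (2.21, adjusted p = 0.0118) and stood 3.61 higher in SM than in FLK1+ cells. Nfe2, a blood cell bZIP gene, rose from HE1 to HE2 (3.91) and HP cells (4.81), while Maf of the same list fell in both (-3.93 and -3.34).

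Over the 13 group means the AP-1 genes fell into patterns that ran partly against each other. Fos and Fosb correlated with r = 0.90, Fosb and Jun with 0.88, Jun and Jund with 0.88, and Jund and Batf with 0.87. Fosl2 went with Atf3 (0.72) and Fosl1 (0.60), and against Batf (-0.80) and Jund (-0.73). These are descriptions over 13 points from 27 arrays that share slides, with no test.

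**Figure D2:**
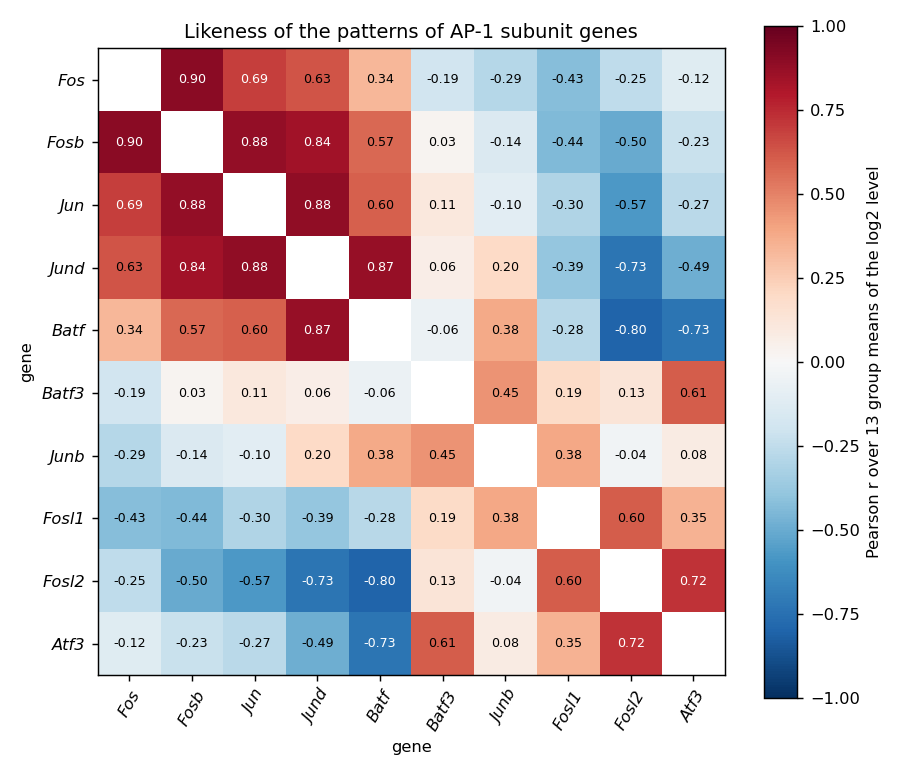
Pearson r between the patterns of the 10 AP-1 subunit genes over 13 group means of the log2 level, untreated and DOX groups together. Red squares are positive and blue squares negative values, printed in each square. Fos, Fosb, Jun, Jund and Batf form 1 block of positive values, and Fosl2 has negative values with Jund (-0.73) and Batf (-0.80).

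Among 16229 other genes with a symbol, the pattern most like that of Fosb was that of the autophagy kinase gene Ulk2 (r = 0.97), followed by the embryonic globin gene Hbb-y (0.95). For Jun they were Lrch3 (0.97) and the shear stress factor Klf2 (0.94), and for Fos Ahsa2 (0.94) and Atrn (0.93). Fosl2 was closest to Acot9 (0.98) and Coq10b (0.97), and Fosl1 to Cyp2b10 and Adam26b (both 0.93). Junb was closest to the myeloid factor gene Cebpa (0.90) and Zfp385a (0.88), Jund to Trim30a and Tnip2 (both 0.96), and Batf to Mdga1 and Nrros (both 0.99). For Atf3 the closest were Prrc1 (0.91) and 4930402H24Rik (0.90), and for Batf3 Ppm1j (0.89) and Adamts10 (0.87). With so many candidates and 13 points, values of this size describe shape alone.

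The comparison with DOX asks how the AP-1 genes themselves responded when dnFOS was induced. Averaged over the 6 populations, Atf3 and Batf3 were called lower and no member was called higher. These 2 of 10 stood against 0.166% of 28309 genes called, or 0.155% called lower. The median over all genes tested was 0.14 for this mean and 0.29 in HP cells, and the members' values are relative to the array's percentile, not to that median. In single populations limma called 0 of the tested members: 0 of 10 at 5 h, in HE2 and in HP cells, 0 of 9 at 24 h, and 0 of 8 in SM and in HE1 cells. The shares of all genes called were 0.00839% in SM cells, 0.0318% in HP cells and 0% in each of the other 4. An unadjusted p under 0.05 was reached by no member in the cultures (5.2% of genes at 5 h and 1.44% at 24 h), Fosl2 in SM and HP cells, by Batf3 in HE1, HE2 and HP cells and by Atf3 in HE2 and HP cells. The shares of all genes at that level were 8.36% in HE2, 3.47% in HP, 2.6% in SM and 1.16% in HE1 cells.

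**Figure D3:**
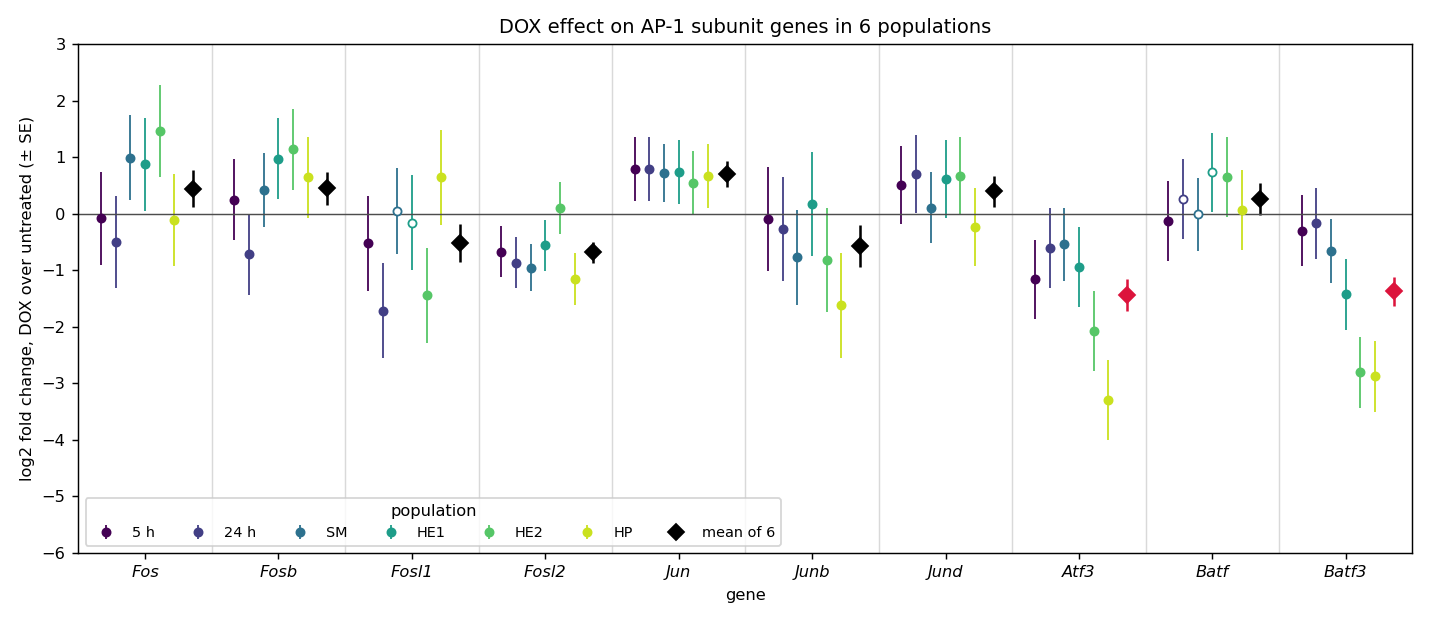
Log2 fold change with DOX (DOX over untreated, with SE) of the 10 AP-1 subunit genes in 6 populations (circles) and as their mean (diamonds). Open circles were not tested because neither group was above background on all its arrays, and red diamonds were called. Jun lies above 0 in all 6 populations, Atf3 and Batf3 below 0 in all 6, with -3.29 and -2.88 in HP cells.

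Batf3 was lower with DOX in all 6 populations, as were Atf3 and 5.26% of genes. In HE2 cells its level was 0.18 and 0.69 without and -1.37 and -3.39 with DOX, and in HP cells -0.53 and 0.40 without and -2.96 and -2.94 with DOX. In both populations every DOX array lay below every untreated array, which was so for 15.5% and 11.8% of genes. The difference was 7.01-fold in HE2 (log2 -2.81, SE 0.63, limma adjusted p = 0.568) and 7.37-fold in HP cells (-2.88, SE 0.63, adjusted p = 0.178). The HP difference was called under 4 of 42 alternatives, with the authors' processed values (-2.55, adjusted p = 0.0146), quantile normalization (-3.11, 0.0492), the slide as a random block (0.0343) and array quality weights (0.0346). Without 1 array the HE2 value lay between -3.82, without DOX replicate 1, and -1.80, without DOX replicate 2. In HE1 cells it was -1.43, and -0.52 or -2.34 without DOX replicate 2 or 1. It was -0.66 in SM cells, -0.30 at 5 h and -0.17 at 24 h. The mean over the 6 populations was a 2.59-fold fall (log2 -1.38, SE 0.25, adjusted p = 0.0287). On single slides, where DOX and untreated arrays lay side by side, Batf3 was lower in 11 of 11 values, from -4.08 to -0.14, a count reached by 0.332% of genes. With the slide as a block the mean was -1.34 (adjusted p = 0.0520), and the call was lost in 21 of 42 alternatives. Leaving out 1 array ended it for 18 of 27 arrays (log2 -1.54 to -1.21, adjusted p up to 0.0826), the exceptions being FLK1+ and SM replicates 1 and 2, HE2 and HP replicate 1, and replicate 1 of the SM, HE1 and HE2 cells with DOX.

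Atf3, like Batf3, had its lowest DOX values in HP and HE2 cells. Its level in HP cells was 1.06 and 0.74 without and -2.61 and -2.18 with DOX, and in HE2 cells 0.29 and 1.93 without and -0.06 and -1.86 with DOX. At 5 h it was 3.62 and 3.13 without and 1.81 and 2.61 with DOX. The arrays did not overlap in these populations and in HE1 cells (15.2% of genes were lower in this way at 5 h and 8.17% in HE1 cells), and overlapped at 24 h and in SM cells. The difference was 9.80-fold in HP cells (log2 -3.29, SE 0.70, limma adjusted p = 0.167) and 4.21-fold in HE2 cells (-2.08, SE 0.70, adjusted p = 0.568). Leaving out 1 array moved the HE2 value from -1.17, without DOX replicate 2, to -2.98, without DOX replicate 1, and the 2 slides gave -0.36 and -3.80. It was -1.16 at 5 h, -0.95 in HE1, -0.61 at 24 h and -0.54 in SM cells. The mean was a 2.71-fold fall (log2 -1.44, SE 0.28, adjusted p = 0.0469). On single slides it was lower in 10 of 11 values, the exception being 0.25 in SM cells, and 1.59% of genes were lower in at least 10. This call was lost in 29 of 42 alternatives, with the slide as a block at -1.32 (adjusted p = 0.0662). It was lost on leaving out 1 array for 22 of 27 arrays (-1.59 to -1.29, adjusted p up to 0.130), and was made without SM replicate 2, HE2 replicate 1, 24 h DOX replicate 2, or replicate 1 of the SM or HE2 cells with DOX.

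**Figure D4:**
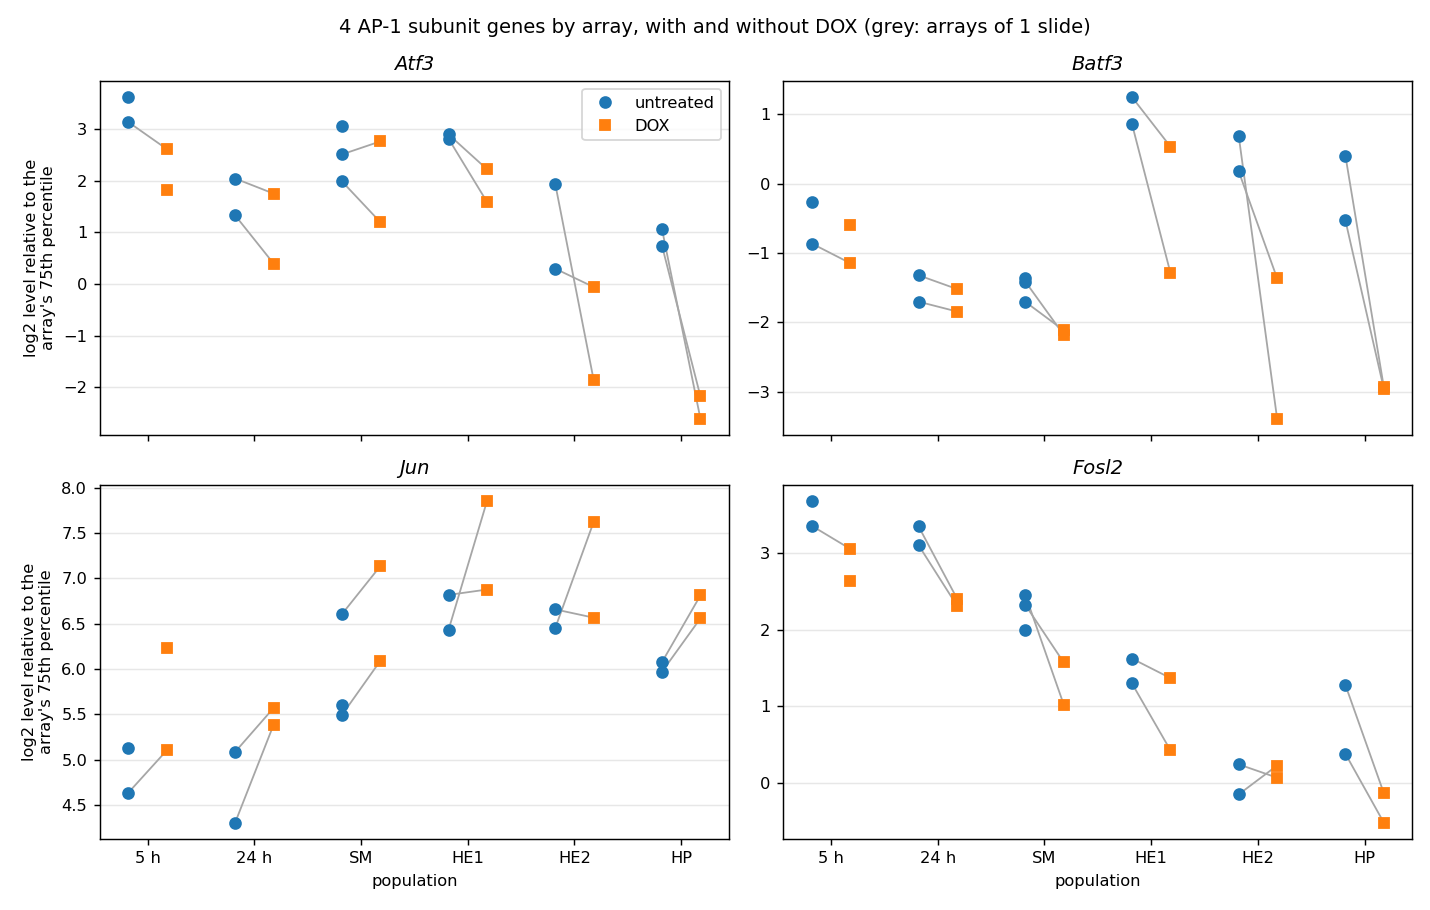
Log2 level (relative to the array's 75th percentile) of Atf3, Batf3, Jun and Fosl2 on each array of 6 populations, untreated (circles) and with DOX (squares). Grey lines join arrays of 1 slide. The HP arrays with DOX lie at -2.61 and -2.18 for Atf3 and -2.96 and -2.94 for Batf3, while Jun rises along 10 of 11 lines and Fosl2 falls along 10 of 11.

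The sizes of these effects were not shown to differ in the 4 pairs of populations compared below. Wider gaps lay outside these pairs and were not tested. Batf3 was -0.17 at 24 h and -2.88 in HP cells, and Atf3 was -0.54 in SM and -3.29 in HP cells. In limma's tests of the difference of DOX effects between 24 h and 5 h, HE1 and SM, HE2 and HE1, and HP and HE2 cells, 0 of the tested members were called, as were 0% of genes, and no member reached an unadjusted p under 0.05, against 1.37%, 0.457%, 1.21% and 4.06% of genes in that order. For Batf3 the log2 effect in HE2 minus that in HE1 cells was -1.38 (SE 0.88, adjusted p = 1.00), and for Atf3 the effect in HP minus that in HE2 cells was -1.22 (SE 1.00, adjusted p = 0.934). Marker lists of several cell types also differed between arrays without and with DOX in these populations. The mean level of the 10 myeloid markers was 1.07 to 1.41 on HE2 arrays without and -0.78 to 0.23 with DOX, and 2.09 to 2.50 on HP arrays without and 0.40 to 1.09 with DOX. Of these 10 markers, 9 were lower with DOX in HE2 and 8 in HP cells, limma called 0 of 10 in either, and on the arrays with DOX 8 to 10 were above background in HE2 and all 10 in HP cells. In HP cells the erythroid mean was 0.59 to 0.63 without and 1.01 to 1.67 with DOX, and the progenitor mean 3.26 to 3.29 without and 2.88 to 3.02 with DOX. In HE2 cells the smooth muscle mean was 0.32 to 0.58 without and -0.34 to -0.0017 with DOX. The part of these lists in the lower Atf3 and Batf3 was not tested. Batf, whose level also set HE2 and HP cells apart, differed by 0.65 and 0.07 with DOX in these populations.

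Jun was higher with DOX in all 6 populations, as were 7% of genes. The log2 difference was 0.79 and 0.78 in the 5 h and 24 h cultures. Among sorted cells it was 0.74 for HE1, 0.71 for SM, 0.66 for HP and 0.54 for HE2. The mean was 0.70 (SE 0.23), a 1.63-fold difference that did not pass the test (limma adjusted p = 0.389). On single slides Jun was higher in 10 of 11 values, as were 5.77% of genes, the exception being -0.09 in HE2 cells. The slides differed, with 1.42 and 0.06 in HE1 and 1.17 and -0.09 in HE2 cells, and without DOX replicate 2 the differences of these populations were 0.25 and 0.01. Jund was also higher in 10 of 11, with a mean of 0.39 (adjusted p = 0.692), and its exception of -0.61 was in HP cells. Fosl2 ran the other way. It was lower in 10 of 11 slide values and in 5 of 6 populations, with a mean of -0.69 (SE 0.18, adjusted p = 0.198), and in HP cells its level was 0.38 and 1.28 without and -0.52 and -0.13 with DOX. Its dimmer probe went the other way there, with means of -3.30 without and -2.93 with DOX, and at 5 h (-2.79 and -2.43). That probe was lower with DOX at 24 h (-2.95 and -3.28), in SM (-2.31 and -3.45) and in HE1 cells (-2.18 and -3.51). It was also lower in HE2 cells (-3.18 and -3.84), where the brighter probe differed by 0.10.

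For Fos and Fosb the DOX values had no single direction. Fos differed by -0.51 at 24 h, by 1.46 in HE2 cells, by 0.99 in SM and by 0.87 in HE1 cells, and by -0.09 and -0.12 at 5 h and in HP cells. The HE1 value turned to -0.46 without DOX replicate 2 and was 2.20 without DOX replicate 1, and the HE2 value lay between 0.44 and 2.49 without 1 array. In SM cells its level was 4.30, 4.54 and 3.53 without and 5.18 and 5.05 with DOX, so the groups did not overlap, as for 4.38% of genes higher with DOX. On the same arrays the mean of the smooth muscle markers was 3.03 to 3.24 without and 2.28 to 2.56 with DOX, and that of the myeloid markers -2.41 to -1.47 without and -3.08 to -2.82 with DOX, and their part in the Fos values was not tested. The mean was 0.44 (SE 0.33, limma adjusted p = 0.702) for Fos and 0.45 (SE 0.29, adjusted p = 0.678) for Fosb, which was higher in 5 of 6 populations and in 7 of 11 slide values. Fosl1 was -0.53 on the mean, with its lowest values at 24 h (-1.72) and in HE2 cells (-1.44), where its DOX arrays lay below the untreated ones, as those of 9.62% of genes did at 24 h. Without 1 array these ran from -2.56 to -0.88 and from -2.29 to -0.60, the HE2 slides gave -0.30 and -2.59, and 1 HE2 array with DOX was not above background. Untreated HE2 replicate 1 was the dimmest array, so its Fosl1 signal of 22.7 gave a level of -1.79. A like signal of 22.6 on FLK1+ replicate 1 gave -4.01. Junb was -0.57 on the mean and -1.63 in HP cells, where its level was 0.93 and -0.56 without and -1.80 and -1.09 with DOX, without overlap, as for 11.8% of genes lower in this way, and the slides gave -2.72 and -0.53. Its HE2 arrays with DOX lay at 0.19 and -2.65. Batf was 0.26 on the mean. None of these 3 passed the test (adjusted p = 0.677 for Fosl1, 0.680 for Junb and 0.755 for Batf).

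Batf3 and Atf3, the pair that fell, are close neighbours on chromosome 1. In the order of RefSeq genes 1 protein-coding gene, Fam71a, lies between them, and it differed by -0.85 on the mean with DOX (limma adjusted p = 0.608). The next genes outside the pair were Tatdn3 (0.43) and Nsl1 (0.64) beside Batf3 and Nenf (0.33) and Pacc1 (0.52) beside Atf3, all positive and none called. These 5 genes were looked at after the values of the pair were known. Fos and Batf are likewise neighbours, on chromosome 12 with Jdp2 between them, and there the means were 0.44, 0.26 and -0.32, with none called.

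The other genes of the pathway were counted in the same way for the mean DOX effect, where 0.155% of genes were called lower and 0.0106% higher. Of 18 tested textbook AP-1 targets, 2 were called lower and 0 higher on the mean. The 2 were Plaur (log2 -1.65, SE 0.24, limma adjusted p = 0.00533) and Ccl2 (-1.80, SE 0.33, adjusted p = 0.0306), which were not followed under the alternatives. In all, 15 of 18 had values below 0, with a median of -0.81 against 0.14 over all genes. Of 21 immediate-early genes outside AP-1, limma called 0, with 12 below 0 and a median of -0.05, and Egr1 at 0.62, Ier2 at -0.53 and Dusp1 at -0.31. It also called 0 of 21 other bZIP partners, 0 of 27 MAP kinases and their kinases, 0 of 16 MAP kinase phosphatases and Sprouty genes, 0 of 6 serum response factor partners and 0 of 11 heat shock genes.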

How the data were processed

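RNA was hybridised in 1 colour (Cy3) to 27 Agilent mouse arrays. The deposited files hold each spot's processed signal as an intensity, which the authors obtained with Agilent Feature Extraction (version 10.7.3.1 per the file headers, 10.7.1.1 per the submitters' processing notes), and a table of the authors' processed log2 values, used here as an alternative only. Groups came from the sample labels. The members and gene lists, and the rule for named genes (members in full, and list genes with the largest called changes), were chosen with earlier results of these data known.

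From the intensities, log2 signal minus each array's 75th percentile was computed, outlier spots were dropped, spots of a probe averaged, and the probe with the highest mean kept per gene. Group means of all 13 groups were fitted with limma 3.58.1 in R 4.3.3. A gene entered a test if every array of 1 or more of the compared groups had it well above background. It was called if its adjusted p (Benjamini-Hochberg) was under 0.05 and its difference 2-fold or more. For a group with no array above background, a bound replaced the fold: the bright group's mean against the lowest signal well above background on each dim array, or the probe's own where higher. Steps were tested on simulated data. Alternatives covered background correction, scaling, filters, probes, slide, scan day, replicate number, array weights and leaving out each array. Some genes of the lists are counted but not reported by name here.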

Additional observations from a re-analysis of the deposited data

Results flagged for a closer look

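Fos differed with DOX in opposite directions in 2 populations. In SM cells every DOX array was higher than every untreated array, with a log2 difference of 0.99, as for 4.38% of genes. In the 24 h cultures every DOX array was lower, with -0.51, as for 9.62% of genes. The nearest arrays there lay at 2.499 with and 2.506 without DOX. Limma called neither difference. On single slides the values were 0.88 and 0.51 in SM cells and -0.63 and -0.38 at 24 h. The difference between these populations was not tested.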

How the results depend on the processing

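Of 29 results followed under the alternatives, 17 of them called, 0 changed direction. The count of 9 members that varied over the untreated course became 4 with median scaling, 5 where a probe had to be above background in every group compared and 5 with the slide as a fixed block, and was 7 to 9 without 1 array. The 15 calls between untreated populations became 23 with quantile normalization, 7 with median scaling, 26 with the authors' processed values, 6 with the stricter filter, 23 with array quality weights and 8 with only the groups compared in the fit, and were 6 to 17 without 1 array. The 2 calls with DOX became 3 with quantile normalization, 3 with the authors' processed values, 1 with normexp, 0 with median scaling, 1 without a filter on dim probes, 1 with the stricter filter, 0 with the slide as a fixed block, 4 with it as a random block, 1 with scan day as a block, 4 with array weights and 1 with only the groups compared, and were 0 to 2 without 1 array. The 2 calls added under the random block and under the weights were Atf3 and Batf3 in HP cells, and the 1 added by quantile normalization and by the authors' values was Batf3 in HP cells. The causes were not tested. The count of 0 members whose DOX effect differed in the 4 pairs of populations compared was 0 under each alternative run.

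Replicate numbers were not taken to pair the samples, since same-numbered deviations correlated with r of -0.148 at 5 h, where replicate 1 shared no slide, although r was 0.261 to 0.611 in the other 5 populations. With the replicate block the calls were 14 between untreated populations, without Fosb from the 24 h cultures to SM cells (log2 3.11, adjusted p = 0.204), and 1 with DOX, without Atf3 (-1.39, adjusted p = 0.0738). Dim probes limit Batf and Fosl1, which were above background on 16 and 20 of 27 arrays.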
